A study of Mus musculus with 6 samples.

Results

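The 10 genes described here are general pluripotency factors and markers: Pou5f1, Sox2, Sall4, Utf1, Zfp42, Lin28a, Dppa2, Dppa4, L1td1 and Fbxo15. They were chosen by symbol from the deposited expression table, without the Nanog locus, and all 10 had a row among 18518 gene symbols. RNA sequencing was done on E14Tg2A cells, an established mouse embryonic stem cell line, in 3 wild-type (WT) and 3 BACH1-KO libraries. BACH1 is a heme-binding transcription factor, and the BACH1-KO cells had Bach1 targeted with CRISPR/Cas9 guides on a LentiCRISPR plasmid, puromycin selection and sorting of single-cell clones. Cells of both genotypes were cultured in serum medium with 200 units/ml LIF, the cytokine that sustains self-renewal through STAT3, for 2 days. The labels do not say whether the 3 BACH1-KO libraries come from 1 clone or whether the libraries come from separate cultures, so a p-value here covers only how these 6 libraries vary, and that may be technical variation.

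Pou5f1 encodes OCT4, a POU-domain factor that binds DNA together with the HMG-box factor SOX2, often at adjacent sites, and the pair sustains its own genes and many others in embryonic stem cells. SALL4 is a zinc finger factor that works with them and recruits the NuRD complex. Utf1, Zfp42 (which encodes REX1) and Fbxo15 are markers of undifferentiated cells and known OCT4 or SOX2 targets. DPPA2 and DPPA4 are SAP-domain chromatin proteins that form a heterodimer. LIN28A and L1TD1 are RNA-binding proteins, the first of which blocks the maturation of let-7 microRNAs.

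The start regions of 3 members are printed because they hold, or lack, letters that the factors of this pathway are known to read. RefSeq's promoter windows (GRCm38.p6, which is mm10) run from 250 bases before to 50 bases after a start, and the table matched 6 of the 10 members in 7 windows. Zfp42 is at chr8:43306960-43307259 on the minus strand, Lin28a at chr4:134018767-134019066 on the minus strand and Pou5f1 at chr17:35505782-35506081 on the plus strand. Each is written 5′ to 3′ along its gene, with the motif matches named below in capitals.
Zfp42: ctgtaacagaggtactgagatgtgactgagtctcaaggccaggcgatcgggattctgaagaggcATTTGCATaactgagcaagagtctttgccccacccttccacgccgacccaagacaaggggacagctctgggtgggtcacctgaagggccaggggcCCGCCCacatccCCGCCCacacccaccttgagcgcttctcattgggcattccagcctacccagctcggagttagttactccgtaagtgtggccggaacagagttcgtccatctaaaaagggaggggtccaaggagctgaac
Lin28a: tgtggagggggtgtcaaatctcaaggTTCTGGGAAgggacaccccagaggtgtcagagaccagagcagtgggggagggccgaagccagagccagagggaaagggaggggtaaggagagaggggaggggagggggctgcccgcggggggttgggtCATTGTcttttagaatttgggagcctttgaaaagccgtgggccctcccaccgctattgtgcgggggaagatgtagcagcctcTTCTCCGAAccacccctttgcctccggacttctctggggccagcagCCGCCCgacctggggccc
Pou5f1: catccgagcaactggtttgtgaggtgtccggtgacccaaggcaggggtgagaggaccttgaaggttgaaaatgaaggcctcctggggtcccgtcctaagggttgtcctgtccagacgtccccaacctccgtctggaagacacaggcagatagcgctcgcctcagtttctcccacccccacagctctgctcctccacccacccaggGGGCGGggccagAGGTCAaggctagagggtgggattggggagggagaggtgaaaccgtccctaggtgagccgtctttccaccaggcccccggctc
Positions are counted from the start, the base before it being -1. The Zfp42 window holds the octamer that OCT4 reads (ATGCAAAT, here on the opposite strand as ATTTGCAT) at -186 to -179, and it was the only one of the 7 windows with it. Of all 32851 windows 1.74% hold the octamer on either strand. The Lin28a window holds the STAT letters TTCNNNGAA at -224 and at -14, which 8.30% of all windows hold at least once, and the SOX core CATTGT at -96, which 12.6% hold. The first Pou5f1 window holds a GC box (GGGCGG) at -45 and the nuclear receptor half-site AGGTCA at -33, which 35.7% and 16.3% of all windows hold. The Maf recognition element, which BACH1 reads together with small MAF proteins, was in 0 of the 7 windows and in 0.423% of all windows. Over the 7 windows the SOX core was in 2, the half-site in 2, the STAT letters in 1 and the GC box in 5. The other capitals are GC boxes, on either strand. No motif overlapped another in these 3 windows. A match describes letters and not a bound site.

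All 10 members differed between the genotypes, 7 lower and 3 higher in BACH1-KO. No member was lost: the lowest level of any member in any library was 9.37 FPKM, a unit of fragments that is divided by transcript length and by library size. The members that were lower lay 12.6% to 44.6% below WT by their means, and the 3 higher ones were Fbxo15, Dppa2 and Sall4. The test was limma on log2(FPKM + 1) over the 12187 genes averaging 1 FPKM or more, with Benjamini-Hochberg adjustment over all of them and a threshold of 0.05, and each adjusted p given here comes from it. By this test 77% of all genes tested passed, 37.3% higher and 39.7% lower, so passing it does not set these genes apart. Log2 fold changes are differences of mean log2(FPKM + 1), positive where BACH1-KO was higher, with their moderated standard error (SE), and they understate the change of low genes. After quantile normalization, which gives all libraries the same distribution of values, 3 members were called higher and 4 lower. The median log2 fold change was -0.26 over the members and -0.01 over all genes tested, and the median absolute log2 fold change was 0.46 and 0.38. In all 10 members the 3 libraries of 1 genotype lay above the 3 of the other, as in 79.3% of genes tested. An exact two-sided permutation test then gives p = 0.1, the smallest that 3 against 3 libraries allow. By mean level, 7 members lay at 100 FPKM or more, where 57.6% of 1051 genes were lower and 27.97% higher (median log2 fold change -0.20). The other 3 lay between 10 and 100 FPKM, where 45.8% of 5500 genes were lower and 33.5% higher (median -0.08). By mean FPKM 1 member at least doubled and 0 at least halved, against 11.5% and 6.16% of genes tested.

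**Figure D1:**
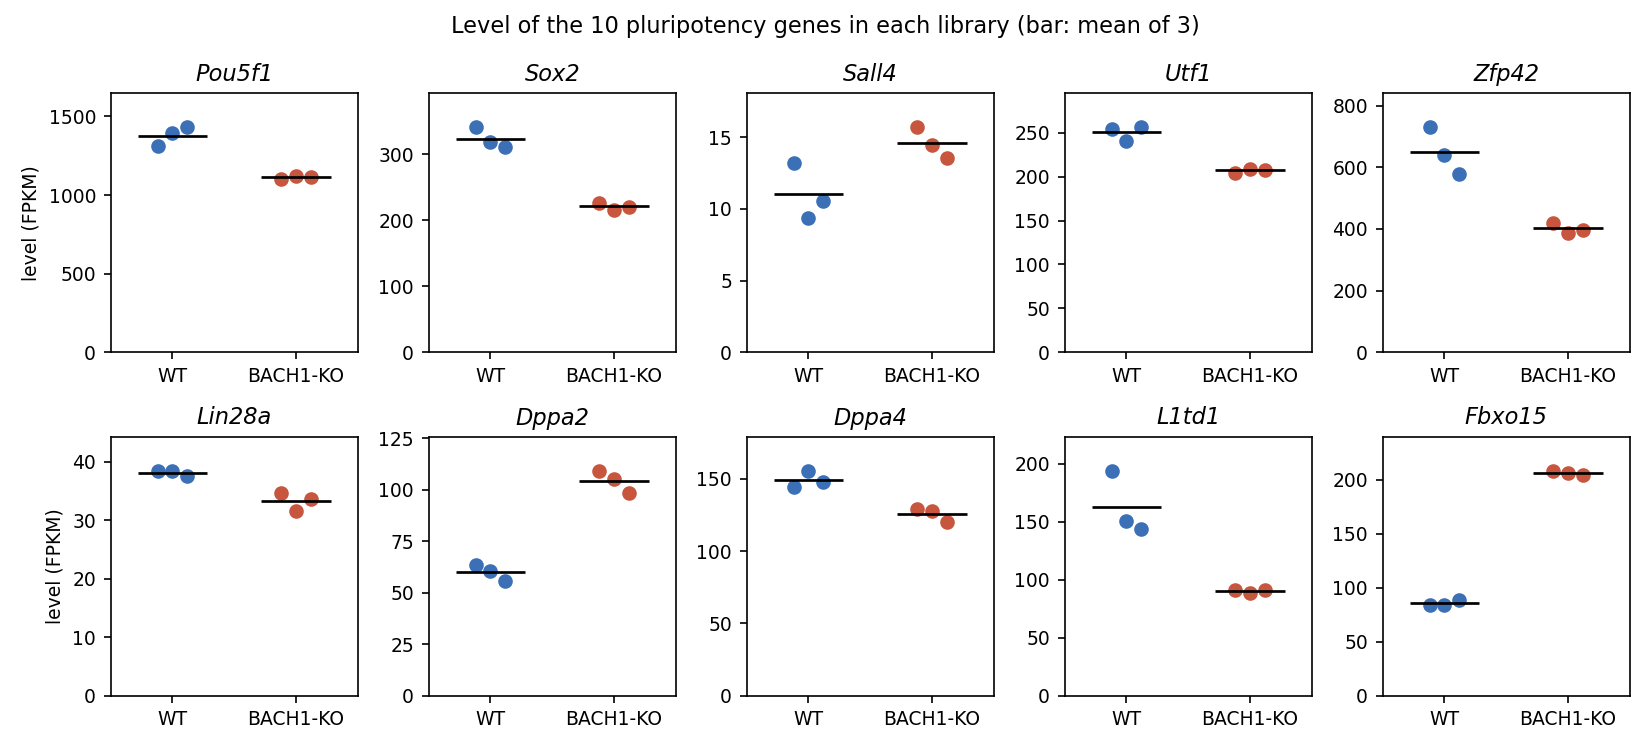
Level of each member in FPKM (vertical axes from 0, scaled per gene) in the 3 WT libraries (blue) and the 3 BACH1-KO libraries (red), with a bar at each mean. In every panel the groups do not overlap, and Fbxo15, Dppa2 and Sall4 are the 3 panels in which BACH1-KO is higher.

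Libraries of the same genotype were alike, and Bach1 RNA was still present in BACH1-KO, at a higher level than in WT. Pearson's r over the genes tested was 0.991 to 0.994 within a genotype and 0.929 to 0.935 between genotypes (genes are not independent replicates). Bach1 itself was at 7.97, 8.39 and 8.47 FPKM in WT and at 10.5, 10.4 and 10.4 FPKM in BACH1-KO. It was called higher by limma (log2 fold change 0.30, adjusted p = 5.15e-04). A transcript level cannot tell if the coding sequence carries an edit. Transcripts of hepatocytes, a cell type foreign to these cultures, were present in BACH1-KO: all 22 listed markers with a row were higher (0 lower by limma, 0 also at an unadjusted p under 0.05). Summed per library they reached 20.3 to 30.9 FPKM (WT) and 1118 to 1159 FPKM (BACH1-KO). Most of the WT sum came from Trf and Rbp4, at 10.1 ± 0.307 and 9.21 ± 0.296 FPKM in WT. Among the WT columns Alb was highest in the third (0.0738, 0.701 and 1.39 FPKM). None of the 22 was at 0 in all 6 libraries, and Alb, the albumin gene, stood at 0.721 ± 0.658 and 468 ± 5.91 FPKM. With FPKM rescaled to a sum without these markers all 10 members still passed, in the same direction. The markers are a small part of a library's summed FPKM (762745 to 805118), so this could hardly change a call. The members' median log2 fold change went from -0.259 to -0.257. The rescaling does not remove other RNA of such cells, so it cannot show what part they have in the members' values.

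Markers of other lineages were read beside the members, and few of them were abundant. The lists of trophoblast, endoderm, mesendoderm, neuroectoderm and fibroblast feeder markers were summed per library, and most of their genes were under the filter. Of those tested, 4 of 6 trophoblast, 3 of 6 endoderm, 3 of 4 mesendoderm, 1 of 5 neuroectoderm and 4 of 5 feeder markers were lower. In the same order 2, 1, 0, 3 and 1 were higher by limma, and 2, 2, 0, 3 and 1 at an unadjusted p under 0.05. Over all genes tested 39.7% were lower and 37.3% higher. Trophoblast markers summed to 65.2 to 69.9 FPKM (WT) and 58.4 to 61.7 FPKM (BACH1-KO), but did not move together. Tfap2c rose from 12.6 ± 1.17 to 29.6 ± 0.700 FPKM, and Krt8 fell from 23.8 ± 3.20 to 9.80 ± 0.639 FPKM. With no filter on low values, 5 of 12 trophoblast markers were higher and 4 lower by limma. Cdx2, the trophectoderm factor that OCT4 represses, was under the filter and untested, at 0.0675 ± 0.0698 and 0.0430 ± 0.0375 FPKM. Endoderm markers summed to 23.7 to 25.3 and 11.9 to 13.4 FPKM, and mesendoderm markers to 48.3 to 58.3 and 19.2 to 22.2 FPKM. Lama1, a basement membrane laminin gene of the endoderm list, fell from 4.68 ± 0.0537 to 0.789 ± 0.0936 FPKM. Bmp4, a BMP ligand that made up most of the mesendoderm sum in WT, fell from 37.5 ± 5.22 to 9.25 ± 0.822 FPKM. Of the 15 mesendoderm markers, 11 were under the filter. With no filter on low values, 6 of the 15 were lower and 2 higher by limma. Neuroectoderm markers summed to 38.6 to 40.6 and 79.1 to 80.1 FPKM, most of it Tubb3, a neuronal tubulin gene that rose from 32.1 ± 1.06 to 65.2 ± 0.971 FPKM. Pax6, a neural homeobox factor, rose from 0.571 ± 0.244 to 7.40 ± 0.351 FPKM. Feeder markers summed to 254 to 272 and 126 to 131 FPKM, most of it Vim, which encodes vimentin and fell from 186 ± 9.31 to 54.9 ± 1.35 FPKM. Without the filter, 4 of the 12 feeder markers were higher and 6 lower by limma. Their median log2 fold change was then -0.165, against -0.858 with the filter, so the feeder markers did not move together. The defining feeder collagens Col1a1 and Col3a1 were at 0.649 ± 0.0884 and listed at 0 in WT, and at 0.264 ± 0.0946 and 0.102 ± 0.0298 FPKM in BACH1-KO. Alb, Rbp4, Cdx2 and these collagens were named after their values were seen. The part of any of these cells in the members' values was not tested. In bulk RNA, fewer cells expressing a gene and less RNA per cell cannot be told apart.

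Pou5f1, the most abundant member, fell by about the same fraction in each BACH1-KO library. Its locus is chromosome 17, 35506018 to 35510772, plus strand (mm10, as for the other members). Its level was 1309.6, 1391 and 1431 FPKM in WT and 1102.5, 1124 and 1117 FPKM in BACH1-KO. All BACH1-KO libraries were below all WT libraries, and the coefficient of variation was 4.50% in WT and 0.986% in BACH1-KO. The means were 1377 ± 62.0 and 1115 ± 10.99 FPKM (SD, n = 3), 19.1% apart, and the log2 fold change was -0.30 (SE 0.04, adjusted p = 1.16e-04). Among all symbols it ranked 94 to 102 by level in WT and 101 to 103 in BACH1-KO. Quantile normalization ended the call (-0.04 in log2, adjusted p = 0.316).

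Sox2 fell further than Pou5f1. On chromosome 3 (34650405 to 34652461, plus strand), it was at 341, 319 and 312 FPKM in WT and at 227, 216 and 220.8 FPKM in BACH1-KO. The groups were well apart, with the lowest WT library above the highest BACH1-KO library. Sox2 was 31.8% lower by means (324 ± 15.4 and 221 ± 5.38 FPKM), a log2 fold change of -0.55 (SE 0.04, adjusted p = 5.16e-06). Its host transcript Sox2ot, a long non-coding RNA on the same strand that shares 0 exon bases with Sox2 in the GENCODE M21 annotation, was at 0.120, 0.174 and 0.135 FPKM in WT and at 0.840, 1.16 and 0.762 FPKM in BACH1-KO. It was named after its values were seen and, being under the filter, was not tested. By comparison 39.9% of the 6331 genes under the filter with a value above 0 had all BACH1-KO libraries above all WT libraries.

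Sall4, the least abundant member, was higher in BACH1-KO. The gene is on chromosome 2 (168748332 to 168767943, minus strand). It was at 13.2, 9.37 and 10.5 FPKM in WT and at 15.7, 14.5 and 13.5 FPKM in BACH1-KO. The gap between the groups was narrow, from 13.2 to 13.5 FPKM, and the first WT column was the highest of its group. The log2 fold change was 0.38 (SE 0.11, adjusted p = 0.0132), the least certain of the 10. Without the first BACH1-KO column it was not called (log2 fold change 0.33, adjusted p = 0.0505), and without the first WT column it was 0.51 (adjusted p = 6.78e-04). An annotated antisense transcript, Gm14261, shares 526 exon bases with Sall4, and the sources used here do not state that reads were counted by strand.

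**Figure D2:**
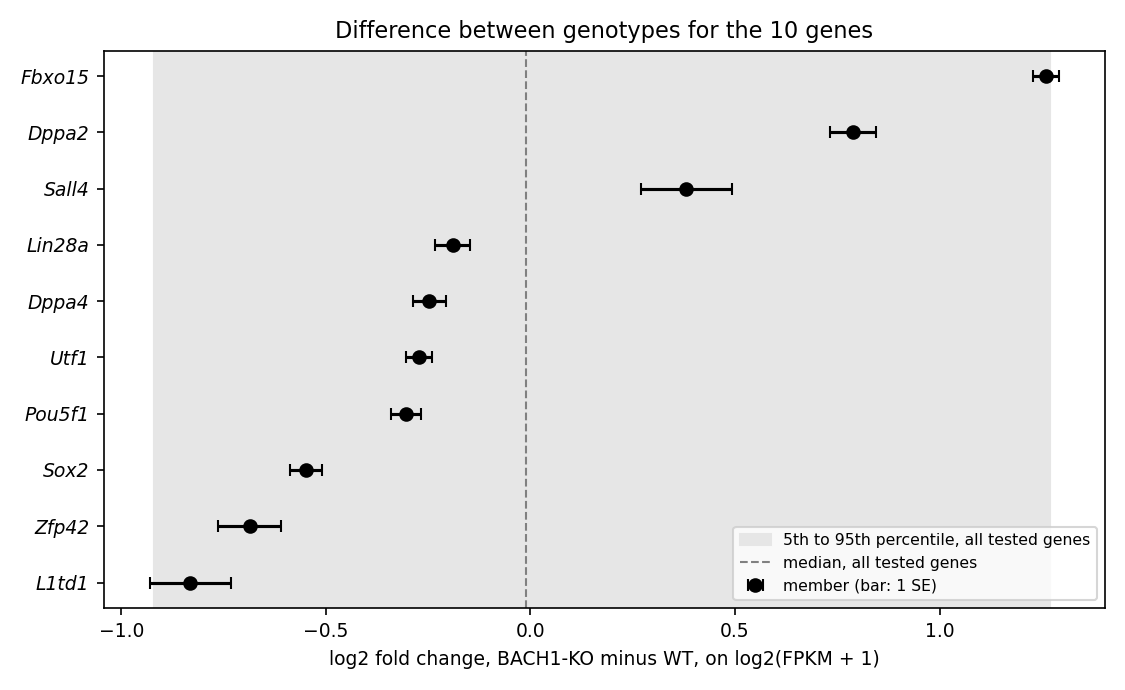
Log2 fold change (horizontal axis, positive where BACH1-KO was higher, from log2(FPKM + 1)) of the 10 members, with bars of 1 SE. The grey band spans the 5th to 95th percentile of all genes tested (-0.92 to 1.27) and the dashed line their median; all 10 members lie within the band, from L1td1 at -0.83 to Fbxo15 at 1.26.

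Zfp42 and Utf1, markers that depend on OCT4 and SOX2, were both lower, Zfp42 by more. Zfp42 (chromosome 8, 43295063 to 43306980, minus strand), whose start region holds the octamer printed above, was at 730.2, 639 and 579 FPKM in WT and at 421, 387 and 397 FPKM in BACH1-KO. The WT libraries spread more (coefficient of variation 11.7%, against 4.33% in BACH1-KO) but stayed above all BACH1-KO libraries. The means were 38.2% apart, with a log2 fold change of -0.69 (SE 0.08, adjusted p = 6.93e-05). Utf1 (chromosome 7, 139943789 to 139945112, plus strand), a chromatin-associated factor, was at 254, 241 and 256 FPKM in WT and at 204, 209 and 208 FPKM in BACH1-KO. Its groups did not overlap either, and its mean was 17.3% below WT, -0.27 in log2 (SE 0.03, adjusted p = 9.64e-05). This call too was lost with quantile normalization (-0.08 in log2, adjusted p = 0.0738).

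Fbxo15, an F-box gene known as an OCT4 and SOX2 target, showed the largest change of the 10 and in the other direction. It lies on chromosome 18 (84934782 to 84981473, plus strand). Its level was 83.9, 84.0 and 88.6 FPKM in WT and 208, 206 and 204 FPKM in BACH1-KO. The groups were far apart beside a coefficient of variation of 3.12% and 1.04%. The mean was 2.41 times the WT mean, a log2 fold change of 1.26 (SE 0.03, adjusted p = 3.10e-08). Its rank by level went from 1255 to 1319 in WT to 455 to 467 in BACH1-KO. Timm21, a mitochondrial import gene that overlaps it on the opposite strand without sharing exon bases (named after its values were seen), was at 25.0, 20.7 and 23.3 FPKM in WT and at 14.1, 12.5 and 12.9 FPKM in BACH1-KO, and so differed in the opposite direction.

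Dppa2 and Dppa4, whose proteins act as a pair and whose genes lie 9671 bases apart on chromosome 16, went in opposite directions. Dppa2 (48303908 to 48319723, plus strand) was at 63.5, 60.6 and 55.9 FPKM in WT and at 109, 105 and 98.4 FPKM in BACH1-KO. All BACH1-KO libraries were above all WT libraries, by 73.9% in the mean, with a log2 fold change of 0.79 (SE 0.06, adjusted p = 4.52e-06). Dppa4 (48283733 to 48294237, plus strand) was at 144, 155 and 148 FPKM in WT and at 129, 128 and 120.1 FPKM in BACH1-KO. It fell by 15.8% of its mean, -0.25 in log2 (SE 0.04, adjusted p = 6.89e-04), a call that quantile normalization ended (-0.07, adjusted p = 0.174). Morc1, the next gene tested beyond Dppa2, 111514 bases away (named after its values were seen), was at 81.0, 82.8 and 82.4 FPKM in WT and at 43.4, 41.6 and 41.1 FPKM in BACH1-KO.

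Near-identical copies limit how exactly some of these levels are known. Transcripts of 6 other annotated genes, all processed pseudogenes, share a stretch of at least 100 bases at 90% identity or more with Dppa2. The closest, Gm9788, matches over 906 bases at 99.3% identity. Dppa4 has 2 such copies, the closer being Gm14058 with 735 bases at 98.9%, L1td1 has Gm48515 with 519 bases at 91.7%, and Zfp42 has Zfp42-ps1 with 266 bases at 98.1%. None of these copies has a row of its own in the table analysed. How the authors' counting divided reads among copies is not given in the sources used here, so the levels of Dppa2 and Dppa4 are uncertain to that extent. Lin28a and Pou5f1 share 234 and 317 exon bases with antisense transcripts, Gm13061 and Gm19553.

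The RNA-binding members both fell, L1td1 by more than Lin28a. L1td1 (chromosome 4, 98726734 to 98738480, plus strand), which derives from a LINE-1 open reading frame, was at 194, 151 and 144 FPKM in WT and at 90.8, 88.8 and 91.0 FPKM in BACH1-KO. The first WT column was high, and all WT libraries were above all BACH1-KO libraries. The means differed by 44.6% of the WT value, -0.83 in log2 (SE 0.10, adjusted p = 9.58e-05). Lin28a (chromosome 4, 134003330 to 134018841, minus strand) was at 38.4, 38.4 and 37.5 FPKM in WT and at 34.7, 31.6 and 33.7 FPKM in BACH1-KO. This was the smallest change of the 10, 12.6% of the WT mean or -0.19 in log2 (SE 0.04, adjusted p = 0.00336).

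By level, L1td1 moved below Fbxo15, Dppa4 and Dppa2 in BACH1-KO, and Fbxo15 moved above Dppa4. In WT the order from the top was Pou5f1, Zfp42, Sox2, Utf1, L1td1, Dppa4, Fbxo15, Dppa2, Lin28a and Sall4, by mean FPKM. The libraries of L1td1 and Dppa4 overlapped, and those of each other pair of neighbours did not. In BACH1-KO it was Pou5f1, Zfp42, Sox2, Utf1, Fbxo15, Dppa4, Dppa2, L1td1, Lin28a and Sall4. There the libraries of Utf1 and Fbxo15 overlapped (204 to 209 and 204 to 208 FPKM), and those of each other pair of neighbours did not. The 10 genes together took 0.382% to 0.404% of all FPKM in the WT libraries and 0.328% to 0.332% in those of BACH1-KO. Their coefficients of variation had a median of 4.62% in WT and 3.11% in BACH1-KO and were smaller in BACH1-KO for 9 of the 10. The medians over the 6551 genes of at least 10 FPKM were 4.30% and 3.18%, and 63.2% of those genes had the smaller value in BACH1-KO.

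Ratios between members within a library do not depend on how libraries are scaled, and 6 of the 7 ratios computed separated the genotypes. For Dppa2 over Dppa4, Fbxo15 over Pou5f1 and Sall4 over Pou5f1 this was fixed in advance. The genes of each of these pairs differed in opposite directions without overlap. Of single genes tested 79.3% separated the genotypes, and the share among other gene pairs was not computed, so the count is not added support. Dppa2 over Dppa4 was 0.441, 0.390 and 0.378 in WT and 0.848, 0.826 and 0.819 in BACH1-KO, a difference of 1.05 in log2. Fbxo15 over Pou5f1 was 0.0641, 0.0604 and 0.0619 in WT and 0.189, 0.184 and 0.183 in BACH1-KO, a difference of 1.57. Both ratios differed far beyond their spread within a genotype. Pou5f1 over Sox2 was 3.84, 4.36 and 4.59 in WT and 4.87, 5.21 and 5.06 in BACH1-KO, a log2 difference of 0.25 with a narrow gap between the groups. The ratio of Sall4 to Pou5f1 was higher by 0.72 in log2, that of Lin28a to L1td1 by 0.64, and that of Zfp42 to Pou5f1 differed by -0.38. Utf1 over Pou5f1 was 0.194, 0.173 and 0.179 in WT and 0.185, 0.186 and 0.186 in BACH1-KO, and these overlap (log2 difference 0.03, exact permutation p = 0.7). For the other 6 the exact two-sided permutation p was 0.1, its lower limit here, or 0.117 adjusted over the 7 ratios.

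**Figure D3:**
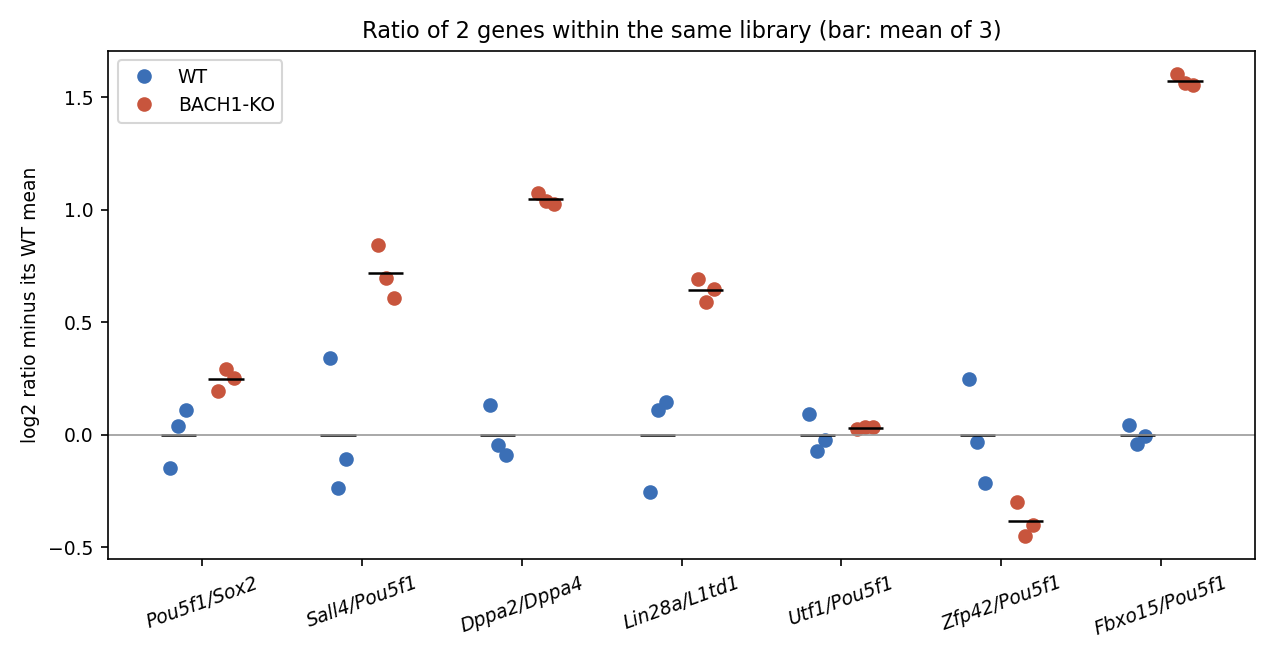
Log2 ratio of 2 members in the same library, minus the WT mean of that ratio (vertical axis), for 3 WT (blue) and 3 BACH1-KO (red) libraries, with bars at the means. The BACH1-KO points of Fbxo15/Pou5f1 and Dppa2/Dppa4 lie more than 1 unit above the WT mean, and those of Utf1/Pou5f1 lie among the WT points.

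Other pluripotency genes outside the 10 and outside the Nanog cluster were mostly lower. Of 26 listed genes, all tested, 16 were lower, 7 higher and 3 not past the threshold, with a median log2 fold change of -0.49. Over all genes tested 39.7% were lower and 37.3% higher. The lower share was 45.8% at 10 to 100 FPKM and 57.6% at 100 FPKM or more. Tet1, a 5-methylcytosine dioxygenase, fell from 21.7 ± 0.407 to 6.02 ± 0.114 FPKM, and Rif1, a telomere and replication timing factor, from 52.3 ± 0.411 to 26.2 ± 0.510 FPKM. Tdgf1, a NODAL co-receptor, was at 1130 ± 72.0 and 242 ± 6.82 FPKM. Alpl, the alkaline phosphatase used to stain stem cell colonies, rose from 36.5 ± 0.668 to 83.4 ± 2.26 FPKM. Dppa5a, an abundant stem cell marker, was at 6606 ± 463 and 4284 ± 134 FPKM. The genes not past the threshold were Zscan10, Mycn and Thap11, and these and Dppa5a were named after their values were seen.

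Genes for proteins that bind OCT4, SOX2 or SALL4 were lower more often than higher. Of 30 tested, 20 were lower, 1 was higher and 9 were not past the threshold, with a median log2 fold change of -0.19. Over all genes tested 39.7% were lower and 37.3% higher. With quantile normalization 16 of the 30 were lower and 4 higher. Ogt, the O-GlcNAc transferase, fell from 74.0 ± 4.07 to 36.0 ± 0.854 FPKM, and Parp1, a DNA repair and chromatin enzyme, from 191 ± 5.64 to 114 ± 1.95 FPKM. The chromatin remodeller genes Smarca4 and Ep400 fell from 26.4 ± 1.19 to 13.96 ± 0.0985 FPKM and from 11.3 ± 0.0573 to 5.22 ± 0.153 FPKM. Hdac1, a histone deacetylase of NuRD, was the 1 that rose, from 93.2 ± 2.56 to 105 ± 3.60 FPKM. Of the XPC complex, a co-activator of OCT4 and SOX2, Cetn2 and Rad23b fell and Xpc was at 10.2 ± 0.367 and 9.75 ± 0.430 FPKM, not past the threshold. Hdac1 and these 3 were named after their values were seen.

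Relatives of the members in their own gene families moved in both directions. Of 23 listed, 16 were tested, 9 higher, 4 lower and 3 not past the threshold, with a median log2 fold change of 0.24. The other 7 had a mean under 1 FPKM. Over all genes tested 37.3% were higher and 39.7% lower. Among SOXB1 genes, the closest relatives of Sox2, Sox3 rose from 1.34 ± 0.101 to 5.51 ± 0.222 FPKM and Sox1 was at 0.431 ± 0.129 and 0.417 ± 0.0970 FPKM (untested, and named after its values were seen), so Sox2 remained far above both at 221 ± 5.38 FPKM. Pou2f3, a POU factor, fell from 15.5 ± 1.43 to 0.588 ± 0.0374 FPKM, and Pou3f1 rose from 3.64 ± 0.691 to 5.61 ± 0.538 FPKM. Among SALL genes Sall1 fell from 40.8 ± 2.08 to 28.2 ± 0.0320 FPKM and Sall2 rose from 1.58 ± 0.129 to 2.52 ± 0.107 FPKM, so that Sall1 was above Sall4 in both genotypes. Yy1 and Yy2, of the zinc finger family to which Zfp42 belongs, rose from 36.3 ± 2.95 to 45.5 ± 1.32 and from 5.40 ± 0.221 to 10.2 ± 0.506 FPKM.

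**Figure D4:**
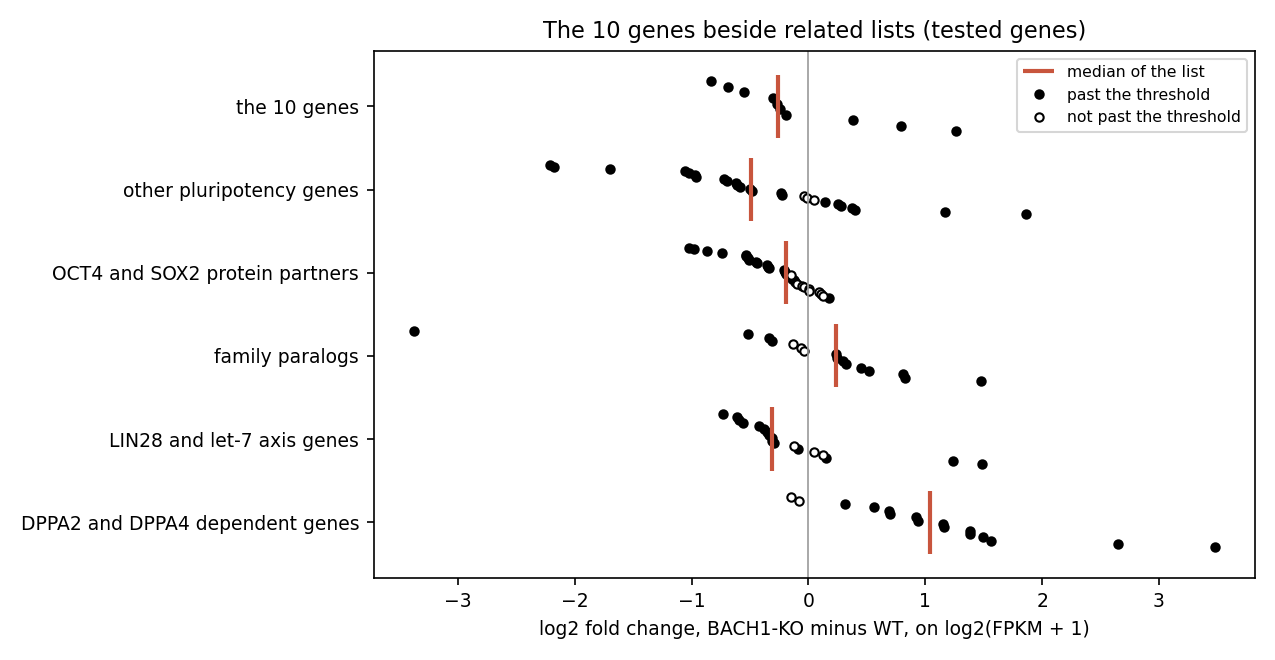
Log2 fold change (horizontal axis) of each tested gene of 6 lists, filled where it passed the threshold and open where it did not, with a red bar at the list's median. The medians run from -0.49 for the other pluripotency genes to 1.04 for the genes listed as dependent on DPPA2 and DPPA4.

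Genes around LIN28A in the let-7 pathway were mostly lower as well. Of 20 listed symbols 18 had a row and were tested, 12 lower, 3 higher and 3 not past the threshold, with a median log2 fold change of -0.31. Over all genes tested 39.7% were lower and 37.3% higher. With quantile normalization 5 of the listed genes were higher and 12 lower. Lin28b, the paralog of Lin28a, fell from 8.20 ± 0.0807 to 6.40 ± 0.240 FPKM. Zcchc6, a terminal uridylyltransferase that tails let-7 precursors (also named Tut7), fell from 8.26 ± 0.168 to 5.15 ± 0.219 FPKM, and Dicer1, which cuts them, from 10.9 ± 0.410 to 7.03 ± 0.219 FPKM. Igf2bp3 and Ccnd2, both known let-7 targets, rose from 5.00 ± 0.122 to 15.8 ± 0.350 and from 1.56 ± 0.148 to 5.05 ± 0.216 FPKM. Other known let-7 targets were among the 12 lower genes, so these 2 do not stand for let-7 targets as a set. Mature let-7 was not measured.

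Most genes of a list drawn up as dependent on DPPA2 and DPPA4 in embryonic stem cells were higher in BACH1-KO. Whether they depended on either protein in these cells was not tested. Of 20 listed, 16 were tested, 14 higher, 0 lower (0 also at an unadjusted p under 0.05 by limma) and 2 not past the threshold, with a median log2 fold change of 1.04. Sycp3, a synaptonemal complex gene, rose from 7.75 ± 0.607 to 96.3 ± 1.91 FPKM and Slc25a31, a germ cell ADP/ATP carrier, from 1.51 ± 0.504 to 14.5 ± 0.237 FPKM. Mael, of the piRNA pathway, rose from 6.53 ± 0.206 to 18.7 ± 0.940 FPKM. Usp17le, of a multicopy family whose copies can share reads, rose from 0.744 ± 0.0535 to 4.17 ± 0.371 FPKM. Over all genes tested 37.3% were higher and 39.7% lower. After quantile normalization 13 of the 16 were higher and 1 lower, and without the third WT column 14 and 1. Several of these genes were already known from earlier results of these data to be high in BACH1-KO, so the count is not independent support.

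Genes with the pattern most like a member's were found by the distance between log2 values, centred on the WT mean, over the 6 libraries, among the other 6550 genes of at least 10 FPKM. Closest to Pou5f1 were Aftph, Mlf2 and Nup205, at distances of 0.03, 0.03 and 0.04 in log2 units. Closest to Sox2 were Ywhaz, Sucla2 and Ddx42, at 0.04, 0.05 and 0.05. Closest to Fbxo15 were Gpx1, Coa6 and Ndn, at 0.10 each. Gpx1, the most similar to Fbxo15, was at 214, 220.5 and 230 FPKM in WT and at 506, 530.1 and 513 FPKM in BACH1-KO. With 2 groups of 3 libraries such likeness rests mostly on the difference between the genotypes.

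The direction of every member held under each of 14 other ways of processing the table, while 12 of 140 calls did not. Most of these ways could not have changed a direction. The filters, the constant prior variance and the test against a fold change of 1.5 leave a log2 fold change as it is. Where the groups do not overlap, another pseudocount or a library left out cannot reverse it. Only the rescalings and quantile normalization could have done so. Quantile normalization moved the 7 lower members towards 0 and left 4 of them called. Tested against a fold change of 1.5 in place of no change, 2 members were called, Fbxo15 (adjusted p = 1.16e-06) and Dppa2 (adjusted p = 0.0198), and 2319 of the 12187 genes.

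**Figure D5:**
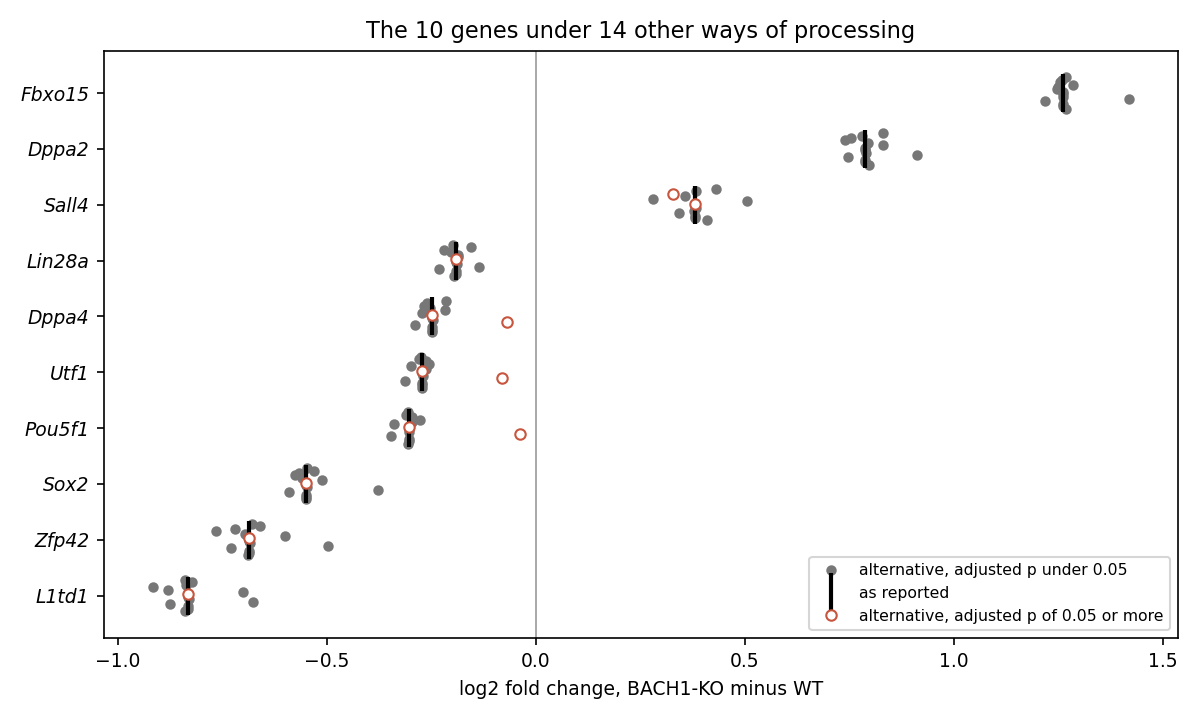
Log2 fold change of each member (horizontal axis) as reported (black bar) and under 14 alternatives (points, open red where the adjusted p was 0.05 or more). Every point of a member lies on the same side of 0; the open points nearest 0 are Pou5f1, Dppa4 and Utf1 after quantile normalization.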

How the data were processed

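The authors deposited 1 table of gene-level FPKM for the 6 libraries, made with Cufflinks on mm10 per the submitters' processing notes. Those notes give no version, and the aligner, annotation and strand setting were not given in the sources used here. No column could be matched to 1 sample title, so each was a replicate of its group without a number. Another 23 rows with a number for a name (0.0987% of the summed FPKM) were left out. No pair of columns was identical. FPKM holds no read count, so absolute depth is unknown; steps of values under 0.1 FPKM gave relative depths of 1.00, 1.11 and 1.05 (WT) and 1.17, 1.18 and 1.00 (BACH1-KO). FPKM is a share of a library, so transcripts that gain much take share from all others.

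The two-sided test was limma's (version 3.58.1, R 4.3.3; lmFit and a trended eBayes) on log2(FPKM + 1) of genes averaging 1 FPKM or more. Exact permutation tests used scipy 1.17.1. Gene coordinates and overlaps came from GENCODE M21 (mm10), and copies from BLAST of its transcripts. The members and lists were chosen with earlier results of these data known. A listed gene of the let-7 pathway is not reported here. Of other lists, names were taken from the up to 4 called genes with the lowest adjusted p, any tested relative in the family list, and the 3 genes of nearest pattern for Pou5f1, Sox2 and Fbxo15; genes outside this rule are marked where they appear. Alternatives were a pseudocount of 0.1, no filter, a filter at 5 FPKM, median-of-ratios scaling, quantile normalization, a sum without hepatocyte markers, a constant prior variance, a test against a fold change of 1.5, and each library left out.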

Additional observations from a re-analysis of the deposited data

How the results depend on the processing

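All 10 members kept their direction under the 14 alternatives, of which only the rescalings and quantile normalization could have reversed it. Tested against a fold change of 1.5, with unchanged log2 fold changes, the members no longer called were Pou5f1 (-0.30), Sox2 (-0.55), Sall4 (0.38), Utf1 (-0.27), Zfp42 (-0.69), Lin28a (-0.19), Dppa4 (-0.25) and L1td1 (-0.83). That test called 2 members (0 lower by limma's treat, 1 at an unadjusted p under 0.05), 2319 genes (1325 higher, 994 lower) and 10 of the other pluripotency genes (2 higher, 8 lower). After quantile normalization Pou5f1 (-0.0372), Utf1 (-0.0801) and Dppa4 (-0.0698) were not called and 4 members were called lower, and the cause was not tested. The filter at 5 FPKM called 2942 genes higher, among fewer genes tested. Leaving out 1 library in turn gave 9 to 10 members called, the exception being Sall4 without the first BACH1-KO column (adjusted p = 0.0505), with its log2 fold change from 0.28 to 0.51. The other members kept their calls when any 1 library was left out. The ratio of Utf1 to Pou5f1 ran from -0.004 to 0.08 in log2 over these. The other 6 ratios, whose groups do not overlap, could not change direction this way. No paired analysis was possible because the columns carry no number that can be tied to a sample title. Depth is unknown in absolute terms, so no counting error could be set beside a level.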
